A study of Mus musculus with 8 samples.

Results

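Gliomaspheres formed by HER2-transformed mouse astrocytes were compared with HER2-transformed astrocytes collected at day 15, over all genes of the deposited count table. The comparison uses 4 of the 8 libraries of the series, 2 per group, named A and B by their labels. Of 13607 gene symbols in the table, 13605 were kept after removal of Rn45s and Lars2, and all 13605 were tested. Cells of every group are labelled C57BL/6J; Yapf/f;Tazf/f, so that Yap1 and Wwtr1, which encodes TAZ, carry floxed alleles that Cre recombinase can delete. Per the series' design text, astrocytes were given 3 lentiviral constructs. HER2CA, a form of the receptor kinase HER2, served as the oncogene that doxycycline switches on. The regulator rtTA responds to doxycycline, and the recombinase CreERT2 acts only when 4-hydroxytamoxifen (4OH-TAM) is present.

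The HER2CA day 15 astrocytes received doxycycline and no 4OH-TAM. The gliomaspheres received doxycycline and no 4OH-TAM, were labelled P1, grew in suspension and were collected 3 weeks after the start. Both groups grew in DMEM-F12 medium with N-2 supplement, EGF and bFGF, and both are labelled as given DMSO, while the treatment protocol calls cells without 4OH-TAM untreated. Whether the vehicle was given is therefore not settled. Control astrocytes were not transformed and grew in the same medium without doxycycline, and the labels do not say whether they carry the constructs. Beside them, the group HER2CA with 4OH-TAM received doxycycline and 1 µM 4OH-TAM for 15 days. These last 2 groups are set beside the comparison as levels only. Suspension culture, the 3 weeks of growth and passaging differ together between the compared groups, so their parts in any difference cannot be told apart. The labels do not give the ages or sexes of the mice, nor whether the libraries A and B of a group are separate cultures. The p-values therefore measure the spread between such libraries alone, which could be technical. In bulk RNA, fewer cells of a type and less RNA per cell cannot be told apart.

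As background, gliomaspheres are floating clusters of glioma cells kept in serum-free medium with growth factors, and they are widely used to study cells with stem-like properties. HER2, the product of Erbb2, signals through the RAS-ERK and PI3K-AKT pathways. Astrocytes, oligodendrocyte precursors and neural stem cells share a developmental origin, and gliomas often carry transcripts of several of these states. ATF4 is the transcription factor of the integrated stress response: kinases that sense amino acid shortage, misfolded proteins or other stress slow protein synthesis, and ATF4 then raises genes for amino acid import, amino acid synthesis and tRNA charging.

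Libraries held between 15517708 (gliomaspheres B) and 28231426 (HER2CA day 15 B) counts. Gliomaspheres B stands apart. Rn45s, a ribosomal RNA transcript, took 36.1% of its counts (95% exact binomial interval from 36.06% to 36.11%). The other 7 libraries had 0.984% to 2.92%, and Lars2 took 2.77% against 0.0457% to 0.165%. Without both, gliomaspheres A held 22335741 counts and gliomaspheres B 9487800. Malat1, a nuclear noncoding RNA, was at 5540.0 and 5122 CPM in HER2CA day 15 and 1197 and 7281 CPM in gliomaspheres, and the 2 gliomasphere libraries lay on either side of HER2CA day 15. Rpph1, the RNA of ribonuclease P, was at 0.79 and 1.04 CPM in HER2CA day 15 and 0.673 and 121 CPM in gliomaspheres, so that 1 library holds its whole increase. Of 7 transcripts in a list chosen to follow such differences (histones and noncoding RNAs), 3 were called higher and 1 lower, with a median of 0.18 and of −0.47 without gliomaspheres B. Without that library 2 were higher and 3 lower. Snhg1, a noncoding host of small nucleolar RNAs, fell from 51.3 and 55.2 CPM to 19.6 and 14 CPM. Hist1h2bc, a replication histone, rose from 42.1 and 29 CPM to 49.2 and 39.4 CPM, with groups that overlap. The chi-square of the 2 libraries of a group was divided by its degrees of freedom, leaving out genes with few counts in that group. It was 21.8 in gliomaspheres, 5.60 in HER2CA day 15, 4.02 with 4OH-TAM and 9.34 in controls, so no pair agreed within sampling noise. Counting error is all that the intervals and bounds cover.

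Levels below are CPM (read counts of a gene per 1e6 counts of its library) scaled by TMM factors, and the paired values of a group are always libraries A and B in that order. A gene is said to have risen or fallen in gliomaspheres when edgeR's quasi-likelihood test, adjusted by Benjamini-Hochberg over all genes tested, gave an adjusted p under 0.05. Fold changes are log2, gliomaspheres minus HER2CA day 15, and stand alone in parentheses after the first in a paragraph. Positions are on GRCm38. Overlaps were looked up only for genes that the naming rule, given under data processing, chose and that matched a single annotated gene. Other genes may overlap too. The strand setting used in counting is not given in the sources, so genes whose exons overlap another gene are less certain. On the opposite strand this holds for Actn1, Atp5a1, Avil, Bex1, Bmp6, Car9, Ccdc39, Ccnd1, Cdkn1a, Cfap52, Col5a1, Csf1r, Dll1, Erbb2, Fn1, Gadd45a, Gbp2, Gpc5, Gpr17, Hes5, Icam1, Il1a, Lhfpl3, Mylk, Ndrg1, Ndufs3, Nefl, Nfkb2, Nrarp, Nrn1, Olig1, Ostn, Pdgfra, Pfkm, Pfkp, Rpl12, Rpl32, Slc2a1, Sox21, Spry1, Syp, Tagln, Tapbp, Timp4, Tk1, Tnr, Ube2c, Vcam1 and Yap1, and on the same strand for Actg1, Col3a1, Elavl3, Ndufb8, Notch2, Pdgfra, Pdia4, Pfkm, Rpl12, Rpl32, Rpph1, Rpsa, Snhg1 and Tapbp.

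Yap1 and Wwtr1, the floxed genes, and Erbb2 were examined first. Yap1 (chromosome 9, 7931999 to 8004596, GRCm38), a transcriptional co-activator, rose from 108 and 112 CPM to 139.7 and 146 CPM (edgeR log2 fold change 0.38, SE 0.0697, adjusted p = 1.32e-04). Wwtr1 (chromosome 3, 57455649 to 57575910), which encodes the co-activator TAZ, fell from 209 and 227 CPM to 193 and 188 CPM (edgeR log2 fold change −0.20, SE 0.069, adjusted p = 0.0164). This call was lost with upper-quartile factors (−0.07, edgeR adjusted p = 0.343) and without HER2CA day 15 B (−0.14, edgeR adjusted p = 0.155). Both floxed genes were counted in every library of both groups, which received no 4OH-TAM. With 4OH-TAM, Yap1 was at 116 and 112 CPM and Wwtr1 at 133 and 132 CPM. Counts per gene do not show whether the floxed parts were intact. Mouse Erbb2 (chromosome 11, 98412470 to 98437716) fell from 33.3 and 32.4 CPM to 22.8 and 25.7 CPM (edgeR log2 fold change −0.45, SE 0.0935, adjusted p = 3.83e-04). The sources used here give neither species nor sequence for HER2CA, and its reads may be missing from the Erbb2 counts.

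The 2 groups differed in most genes measured. Of 13605 genes tested, 10737 passed the threshold (78.9%), 5196 higher in gliomaspheres (38.2%) and 5541 lower (40.7%). At least 2-fold differences were counted for 2999 genes that rose (22%) and 1950 that fell (14.3%). For 11896 genes (87.4%) both libraries of one group lay above both libraries of the other. The median log2 fold change over all genes tested was −0.04, and 0.08 with upper-quartile factors, a shift of over 0.1 that bears on small changes. Each list below is described by its counts and its median beside these shares. Of the genes named below as risen or fallen, all but Rpph1 and Hist1h2bc had both libraries of one group above both libraries of the other. Without gliomaspheres B, 5104 genes were higher and 5426 lower.

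**Figure D1:**
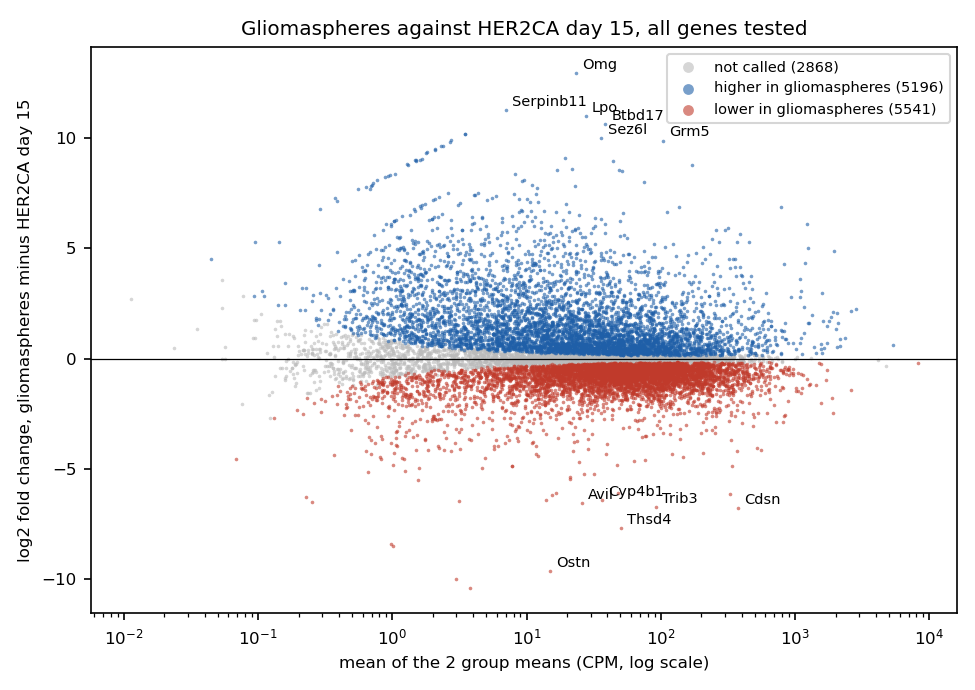
Each point is 1 of the 13605 genes tested: the x axis is the mean of the 2 group means in CPM (log scale) and the y axis the log2 fold change, gliomaspheres minus HER2CA day 15. The 5196 genes called higher are blue, the 5541 called lower are red, and the 6 largest increases and decreases named by the rule carry their symbols; points on the upper left diagonals are genes at or near 0 counts in HER2CA day 15, whose fitted fold depends on the model.

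The 10 largest increases were all in transcripts that HER2CA day 15 astrocytes held at under 1 CPM, several of them for neural membrane and matrix proteins. Omg (chromosome 11, 79500982 to 79504084), oligodendrocyte myelin glycoprotein, had 1411 counts over the gliomasphere libraries and 0 in HER2CA day 15, at least 703-fold higher against a floor of 3 counts over the group. Serpinb11, a serine protease inhibitor family member, had 450 counts against 0, at least 224-fold higher. Lpo, lactoperoxidase, had 1705 counts against 1, a ratio of 2549.6 after scaling (95% counting interval 457 to 100762). Btbd17 had 2459 counts against 2 (ratio 1839, 508 to 15190.0), and Sez6l 2303 against 3 (ratio 1148, 392 to 5571). Chrna4, a nicotinic acetylcholine receptor subunit, had 1185 counts against 3 (ratio 591, 202 to 2868). Grm5 (chromosome 7, 87584168 to 88134907), a metabotropic glutamate receptor, rose from 0.148 and 0.261 CPM to 204 and 209 CPM (edgeR log2 fold change 9.89, SE 0.208, adjusted p = 6.90e-15). A2m, the protease inhibitor alpha-2-macroglobulin, rose from 0.691 and 0.819 CPM to 325 and 351 CPM (log2 fold change 8.78). Timp4, an inhibitor of matrix metalloproteinases, rose from 0.197 and 0.149 CPM to 85.8 and 89.1 CPM (8.96). Tnr, the matrix protein tenascin-R, rose from 0.0987 and 0.112 CPM to 42.3 and 43.9 CPM (8.59). These 10 were chosen for the size of their change and for groups that do not overlap, so the separation of the groups follows from that choice. Control and 4OH-TAM astrocytes lay between the compared groups for each of these 10 genes, with A2m at 12.5 and 16.7 CPM and Grm5 at 1.04 and 1.08 CPM.

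The 10 largest decreases included secreted, matrix and stress-related products. Ostn, the secreted peptide osteocrin, had 1375 counts in HER2CA day 15 and 1 in gliomaspheres, a ratio of 919.5 (95% counting interval 165 to 36345). Cdsn (chromosome 17, 35552128 to 35557180), corneodesmosin, an adhesive protein of the skin barrier, fell from 782 and 702 CPM to 6.1 and 8.25 CPM (edgeR log2 fold change −6.76, SE 0.175, adjusted p = 3.82e-14). Thsd4, a matrix protein with thrombospondin repeats, fell from 108 and 92.9 CPM to 0.314 and 0.868 CPM (−7.69). Ptgs2, the inducible cyclooxygenase COX-2, fell from 94.4 and 93.7 CPM to 1.26 and 1.63 CPM (−6.10). The stress genes Trib3 and Nupr1 belong here too and are described with the ATF4 response. Avil, an actin-binding protein of the villin family, fell from 52.9 and 49.1 CPM to 0.448 and 0.76 CPM (−6.54). Cyp4b1, a cytochrome P450, fell from 83.2 and 60.8 CPM to 0.673 and 1.19 CPM (−6.42). Ogn, the proteoglycan osteoglycin, fell from 28.9 and 26 CPM to 0.179 and 0.651 CPM (−6.40). Fibin fell from 33.9 and 26.8 CPM to 0.448 and 0.326 CPM (−6.18). Control and 4OH-TAM libraries were below HER2CA day 15 for all 10, with Cdsn at 8.91 and 9.38 CPM and Ptgs2 at 2.25 and 1.66 CPM in controls. HER2CA day 15 was thus the high group of the 4 for each of these genes, a position that choosing the largest decreases favours.

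**Figure D2:**
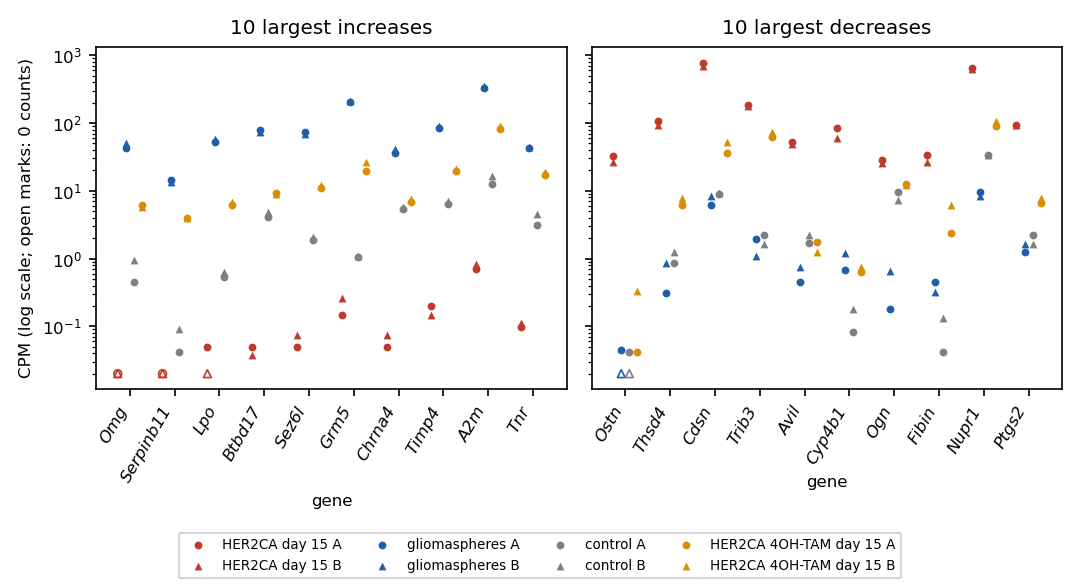
CPM (log scale) of the 10 largest increases (left) and 10 largest decreases (right) in each of the 8 libraries; circles are libraries A, triangles libraries B, colours the groups, and open marks at the bottom are 0 counts. The red HER2CA day 15 marks lie lowest for every gene on the left and highest for every gene on the right. Choosing genes by their change between HER2CA day 15 and gliomaspheres favours these positions.

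Transcripts of mitosis rose together. 30 of 30 measured members were higher in gliomaspheres and all by at least 2-fold (background 22% of genes), with a median of 4.93. Their summed level was 135 and 116 CPM in HER2CA day 15 and 1842 and 1917 CPM in gliomaspheres, against 138 and 132 CPM in controls and 208 and 231 CPM with 4OH-TAM. Gliomaspheres had the highest mitotic sum of the 4 groups, and the HER2CA day 15 libraries lay near the controls without doxycycline. Mki67 (chromosome 7, 135689784 to 135716361), which encodes the proliferation antigen Ki-67, rose from 3.36 and 1.49 CPM to 263 and 282 CPM (edgeR log2 fold change 6.88, SE 0.185, adjusted p = 5.41e-14). Ube2c, the ubiquitin-conjugating enzyme of the anaphase-promoting complex, rose from 0.494 and 0.558 CPM to 44.6 and 53.1 CPM (6.5). Aurkb, the kinase of the chromosomal passenger complex, rose from 0.346 and 0.186 CPM to 22.5 and 22.8 CPM (6.44). Cenpf, a kinetochore protein, rose from 1.53 and 1.12 CPM to 93.4 and 102 CPM (6.23). The 2 smallest rises in the list follow. Tpx2, a spindle assembly factor, rose from 54.5 and 47.5 CPM to 106 and 115 CPM (1.11). Anln, the actin-binding protein anillin of the cleavage furrow, rose from 10.8 and 12.1 CPM to 43.4 and 44 CPM (1.92). All 30 members separated the 2 groups without overlap (background 87.4% of genes).

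DNA replication genes rose less uniformly. Of 30 measured, 25 rose, 0 fell and 5 did not pass the test, with a median of 1.42 and 20 members at least 2-fold higher. Tk1, thymidine kinase of the S phase, had 510 counts in gliomaspheres and 2 in HER2CA day 15, a ratio of 381 (95% counting interval 105 to 3157). Mcm5, a subunit of the replicative helicase, rose from 2.91 and 2.9 CPM to 61.9 and 59.9 CPM (edgeR log2 fold change 4.39, SE 0.138, adjusted p = 2.35e-13). Another helicase subunit, Mcm2, was at 72.6 and 68.7 CPM in HER2CA day 15 and 79.2 and 72.6 CPM in gliomaspheres (0.11) and did not pass the test (edgeR adjusted p = 0.245), so subunits of 1 complex differed in their response. Rrm2, the ribonucleotide reductase subunit that limits nucleotide supply, rose from 7.16 and 6.59 CPM to 105 and 114 CPM (3.99). Mcm10, a replication initiation factor, rose from 1.23 and 1.53 CPM to 14.5 and 14 CPM (3.35). In sum, members stood at 605 and 543 CPM in HER2CA day 15, 1363 and 1359 CPM in gliomaspheres, 418 and 424 CPM in controls and 467 and 477 CPM with 4OH-TAM. HER2CA day 15 thus lay above controls in replication transcripts, and gliomaspheres lay above both.

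Promoters of the mitosis list were searched for the CHR element, TTTGAA on either strand, which binds the DREAM and MuvB complexes that time late cell-cycle genes. It occurred in 23 of 28 windows (82.1%) of 26 members, against 11.6% of 13278 windows of all tested genes with a RefSeq promoter, where a window runs from 250 bases before to 50 after a transcription start. CCAAT, the element bound by NF-Y, occurred in 24 of 28 windows (85.7%), against 37.5%. TTCCCGC, an E2F element, occurred in 12 of 28 windows (42.9%) of replication genes, against 8.09%. A match is a description of letters, not of binding. The 250 bases before the start are shown for the members with the largest rises, from RefSeq on GRCm38.p6, 5′ to 3′ along the gene, with CHR matches in capitals. The windows are chr7:135716380-135716629 on the minus strand and chr2:164769679-164769928 on the plus strand.
Mki67: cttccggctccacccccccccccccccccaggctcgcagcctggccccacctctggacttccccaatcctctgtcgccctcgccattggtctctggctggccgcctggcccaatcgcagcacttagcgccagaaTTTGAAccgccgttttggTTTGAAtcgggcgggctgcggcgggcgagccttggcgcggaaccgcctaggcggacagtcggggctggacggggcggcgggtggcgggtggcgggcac
Ube2c: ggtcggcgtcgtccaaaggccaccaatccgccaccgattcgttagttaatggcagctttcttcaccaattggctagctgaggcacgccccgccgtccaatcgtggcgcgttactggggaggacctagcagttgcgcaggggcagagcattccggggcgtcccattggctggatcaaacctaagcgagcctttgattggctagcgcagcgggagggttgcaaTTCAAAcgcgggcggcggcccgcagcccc
Mki67 carries 2 copies that read along the gene, starting 116 and 98 bases before the start site, and Ube2c carries 1 on the opposite strand that begins 29 bases before it.

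The ATF4 stress response was the list with the lowest median. 28 of 29 members fell and 1 rose (background 40.7% lower), 24 of the 28 by at least 2-fold, with a median of −2.57. Summed levels were 11763 and 11975 CPM in HER2CA day 15, 2485 and 2636 CPM in gliomaspheres, 2205 and 2296 CPM in controls and 5573 and 6662 CPM with 4OH-TAM. The high group was HER2CA day 15, and gliomaspheres lay near the controls, although they received doxycycline and controls did not. Atf4 itself fell from 829.9 and 909 CPM to 112 and 98.7 CPM (edgeR log2 fold change −3.04, SE 0.091, adjusted p = 1.42e-13). Its partner Ddit3, which encodes CHOP, fell from 256 and 301 CPM to 12.4 and 12.8 CPM (−4.47). Atf5, a related factor, fell from 733 and 666 CPM to 40.9 and 36.5 CPM (−4.17).

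Several targets of these factors fell further. Trib3 (chromosome 2, 152337422 to 152344032), a pseudokinase that restrains ATF4 output, fell from 187 and 177 CPM to 1.97 and 1.09 CPM (edgeR log2 fold change −6.74, SE 0.165, adjusted p = 2.12e-14). Nupr1 (chromosome 7, 126623249 to 126630861), a stress-induced chromatin protein, fell from 657 and 631 CPM to 9.73 and 8.36 CPM (−6.12). Gdf15, a secreted stress cytokine, fell from 50.3 and 52.9 CPM to 1.17 and 1.85 CPM (−5.22). Fgf21, another secreted stress hormone, had 99 counts in HER2CA day 15 and 0 in gliomaspheres, at least 22.1-fold lower against 3 counts over the group. Asns, asparagine synthetase, fell from 429 and 442 CPM to 42.2 and 50.7 CPM (−3.25). Slc7a1, the arginine and lysine transporter, fell from 612 and 628 CPM to 51.4 and 43.3 CPM (−3.70). The 3 members that fell least serve amino acid supply. Phgdh, of serine synthesis, fell from 194 and 181 CPM to 129 and 147 CPM (−0.45). Slc7a11, the cystine transporter, fell from 53.3 and 42.4 CPM to 30.0 and 32.4 CPM (−0.62). Slc7a5, the large neutral amino acid transporter, fell from 465 and 492 CPM to 249.7 and 290.1 CPM (−0.83). Gliomaspheres stayed above the controls for Slc7a11 and Slc7a5, which were at 4.33 and 4.44 CPM and 71.6 and 84.5 CPM in controls. Ddit4, an inhibitor of mTORC1 that also belongs to the hypoxia and p53 lists, rose from 40.1 and 32.2 CPM to 132 and 109 CPM (1.75), below the controls at 200.2 and 195 CPM.

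The C/EBP-ATF composite element, TGATGNAA on either strand, occurred in 9 of 30 windows (30%) of 25 members, against 2.24% of all 13278 windows. The windows of 3 of the 9 members that hold it are shown because their transcripts fell by large factors, from RefSeq on GRCm38.p6, 250 bases before the start, 5′ to 3′ along the gene, with the match in capitals. The windows are chr7:126625471-126625720 on the minus strand, chr2:119350992-119351241 on the plus strand and chr7:45615491-45615740 on the minus strand.
Nupr1: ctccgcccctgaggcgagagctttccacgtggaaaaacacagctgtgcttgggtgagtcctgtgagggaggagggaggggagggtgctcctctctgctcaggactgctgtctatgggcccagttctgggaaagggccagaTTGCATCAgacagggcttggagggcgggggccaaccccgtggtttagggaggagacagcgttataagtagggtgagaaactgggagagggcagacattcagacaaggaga
Chac1: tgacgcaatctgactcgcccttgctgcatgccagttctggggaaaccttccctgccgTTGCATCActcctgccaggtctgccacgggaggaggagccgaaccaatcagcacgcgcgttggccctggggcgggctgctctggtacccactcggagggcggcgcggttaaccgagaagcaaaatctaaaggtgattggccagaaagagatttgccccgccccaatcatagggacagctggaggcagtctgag
Fgf21: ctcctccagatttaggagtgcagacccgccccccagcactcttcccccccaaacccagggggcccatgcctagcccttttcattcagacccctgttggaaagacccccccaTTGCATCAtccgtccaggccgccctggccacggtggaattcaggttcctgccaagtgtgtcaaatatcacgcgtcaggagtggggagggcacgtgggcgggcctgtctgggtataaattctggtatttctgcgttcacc
Each window holds TTGCATCA, the element read on the opposite strand. Chac1, which degrades glutathione, fell from 72.8 and 76 CPM to 3.99 and 3.15 CPM (−4.32). In Trib3 the match lies just after the start, inside the transcribed part, and that window is not shown.

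**Figure D3:**
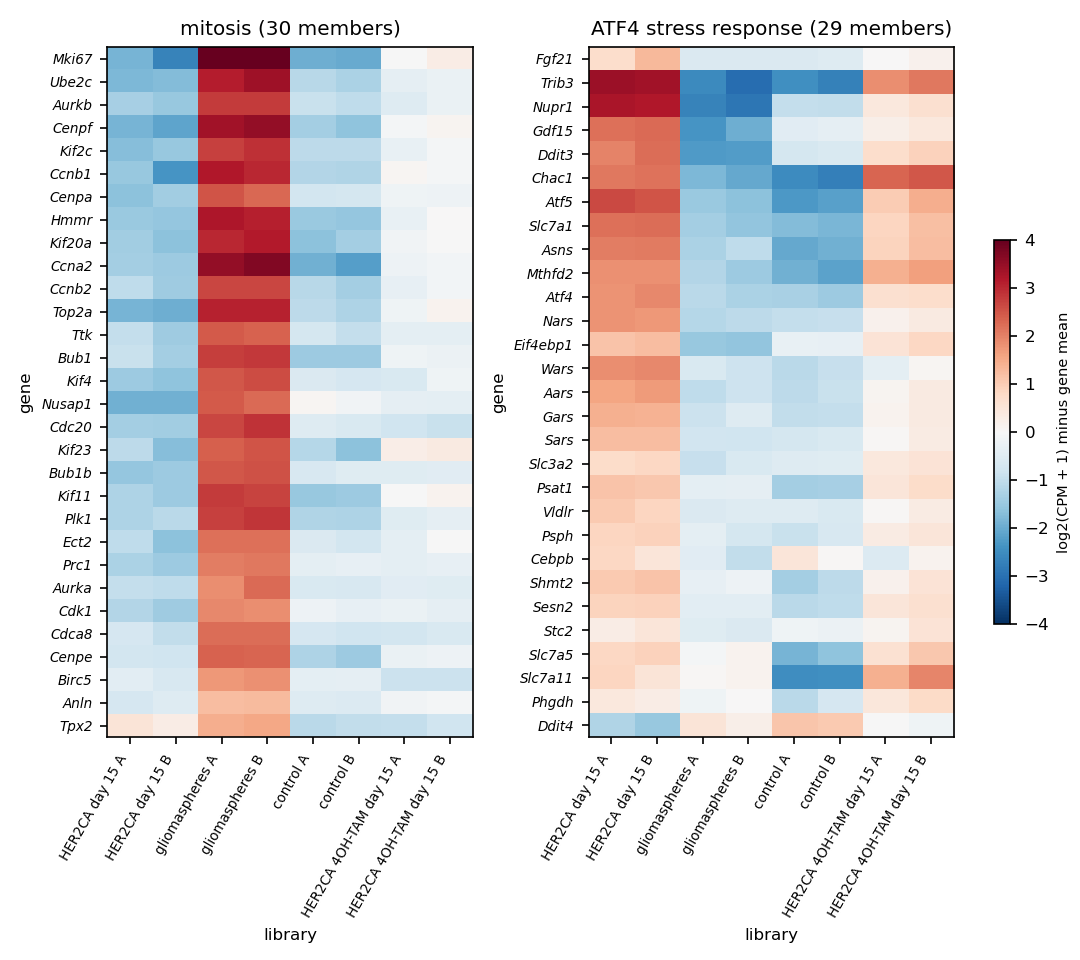
Each row is a member of the mitosis list (left, 30 members) or the ATF4 stress response list (right, 29 members) and each column 1 of the 8 libraries; colour is log2(CPM + 1) minus the gene's mean over the libraries, with values past 4 drawn at the end of the scale. Red is above the gene's mean and blue below. The gliomasphere columns are high for the 30 mitosis members, and the HER2CA day 15 columns lie above the gliomasphere columns for 28 of the 29 ATF4 members, with Ddit4 the exception.

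Chaperones of the endoplasmic reticulum (ER) moved in both directions. Of 23 measured, 12 fell, 6 rose and 5 did not pass (background 40.7% lower and 38.2% higher), with a median of −0.25. Atf6, a membrane-bound sensor of misfolded proteins, fell from 455 and 409 CPM to 83.5 and 75.3 CPM (edgeR log2 fold change −2.44, SE 0.0884, adjusted p = 1.10e-12). Herpud1, of ER-associated degradation, fell from 46.4 and 44.3 CPM to 13.5 and 14.4 CPM (−1.71). The sensor kinase gene Ern1, which encodes IRE1, fell from 26.2 and 28.9 CPM to 9.15 and 10.1 CPM (−1.54). Hspa5, the chaperone BiP, fell from 1385 and 1531 CPM to 546 and 608 CPM (−1.34). Sdf2l1, an ER chaperone cofactor, rose from 1.33 and 1.12 CPM to 7.76 and 7.71 CPM (2.67). The disulfide isomerase Pdia4 rose from 126 and 125 CPM to 251 and 311 CPM (1.16). The other members that rose, Pdia3, Pdia6, Calr and Manf, also serve protein folding.

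Targets of p53 were lower more often than higher, as were all genes tested. Of 23 measured, 13 fell and 6 rose (background 40.7% lower and 38.2% higher), with a median of −0.59. Cdkn1a, the cell-cycle inhibitor p21, fell from 1433 and 1528 CPM to 523 and 553 CPM (edgeR log2 fold change −1.46, SE 0.0807, adjusted p = 1.52e-10), and controls held 1554 and 1497 CPM. Gadd45a, a growth arrest gene that ATF4 also drives, fell from 139 and 165 CPM to 27.2 and 24.6 CPM (−2.54). Pmaip1, the pro-apoptotic protein NOXA, fell from 89.4 and 95.3 CPM to 34 and 35.6 CPM (−1.41). Sesn2, a leucine sensor shared with the ATF4 list, fell from 239 and 245 CPM to 95.3 and 95.6 CPM (−1.34). Gtse1, a microtubule protein of G2 and S phase that restrains p53, rose from 12.1 and 11.7 CPM to 46.9 and 43 CPM (1.93).

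Most markers of astrocytes, of the oligodendrocyte lineage and of neural stem cells rose in gliomaspheres. In the astrocyte list 26 of 27 measured members rose and 0 fell, with a median of 2.5. In the oligodendrocyte lineage list 18 of 22 rose and 2 fell (median 3.64), and in the neural stem and progenitor list 25 of 30 rose and 2 fell (median 1.67). The background share of genes called higher was 38.2%. Astrocyte markers summed to 9452 and 10925 CPM in HER2CA day 15, 31954 and 32799.5 CPM in gliomaspheres and 29727 and 34529.5 CPM in controls, so gliomaspheres fell within the range of untransformed astrocytes and HER2CA day 15 lay below it. Oligodendrocyte lineage markers summed to 1423 and 1489.8 CPM, 9223 and 8556 CPM and 1971 and 2057 CPM in the same order, and here gliomaspheres exceeded every other group, including 3807 and 4156 CPM with 4OH-TAM.

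S100b (chromosome 10, 76253853 to 76261159), a calcium-binding protein of glia, rose from 0.296 and 0.223 CPM to 102 and 92.2 CPM (edgeR log2 fold change 8.54, SE 0.208, adjusted p = 2.06e-14). Ndrg2, a marker of mature astrocytes, rose from 10.8 and 11.2 CPM to 424 and 522 CPM (5.42). Controls held Ndrg2 at 449 and 542 CPM. Gpc5, a glypican, had 166 counts in gliomaspheres and 0 in HER2CA day 15, at least 82.7-fold higher. Gfap, the astrocyte intermediate filament that defines the type, rose from 349 and 377 CPM to 2798 and 2855 CPM (2.96). The glial factor Sox9 was at 357 and 328 CPM in HER2CA day 15 and 325 and 331 CPM in gliomaspheres (−0.06, edgeR adjusted p = 0.447). Both markers of the labelled cell type were thus counted in every library of the comparison, with less Gfap in HER2CA day 15.

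Precursor genes were among the largest rises of the oligodendrocyte lineage list. Sox10 (chromosome 15, 79154908 to 79165240), a master factor of the lineage, rose from 0.0987 and 0.223 CPM to 25.1 and 23.1 CPM (edgeR log2 fold change 7.11, SE 0.312, adjusted p = 9.59e-12). Olig1, a basic helix-loop-helix factor of precursors, rose from 40.6 and 29.6 CPM to 2527 and 2314 CPM (6.11). Pdgfra, the receptor that marks these precursors, rose from 0.888 and 1.34 CPM to 52.4 and 54.6 CPM (5.54). Gpr17, a receptor of committed precursors, rose from 0.148 and 0.186 CPM to 17.7 and 18.9 CPM (6.70). Lhfpl3, another precursor marker, rose from 1.09 and 1.12 CPM to 76.6 and 74.1 CPM (6.09). Some genes of mature, myelinating cells did otherwise. Myrf, the factor that starts myelination, fell from 11.8 and 11.4 CPM to 5.16 and 5.75 CPM (−1.11). Mbp, myelin basic protein, was at 6.37 and 8.6 CPM in HER2CA day 15 and 7.49 and 7.6 CPM in gliomaspheres (−0.01, edgeR adjusted p = 0.973). Sox6, which holds precursors undifferentiated, was slightly lower, at 258 and 249 CPM in HER2CA day 15 and 198 and 202 CPM in gliomaspheres (−0.34). Mag had 6 counts in gliomaspheres and 1 in HER2CA day 15, near the limit of detection, and Mog and Opalin were not analysed here.

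Of the neural stem and progenitor list, the 2 members that fell were Sox2 and Sox21. Sox3, a factor of neural progenitors, rose from 0.543 and 0.596 CPM to 33.7 and 25.4 CPM (edgeR log2 fold change 5.70, SE 0.236, adjusted p = 5.01e-12). Hes6, a proneural regulator, rose from 3.7 and 3.91 CPM to 101 and 101 CPM (4.72). Nes, the intermediate filament nestin, rose from 289 and 260.0 CPM to 815 and 979 CPM (1.71). Egfr, the receptor for the EGF in the medium, rose from 56.3 and 63.9 CPM to 320.3 and 362 CPM (2.5). Sox2, the core stem cell factor, fell from 785 and 786 CPM to 349 and 313 CPM (edgeR log2 fold change −1.25, SE 0.0752, adjusted p = 4.29e-10). Sox21, its relative, fell from 111 and 112 CPM to 56.9 and 65.5 CPM (−0.88). HER2CA day 15 held the highest Sox2 of the 4 groups, since controls were at 457 and 449 CPM and 4OH-TAM at 319 and 333 CPM. Vim, the intermediate filament vimentin, was at 4254 and 4248 CPM in HER2CA day 15 and 3751 and 4301 CPM in gliomaspheres (−0.08) and did not pass the test (edgeR adjusted p = 0.365).

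Neuronal markers were mostly higher in gliomaspheres, where 15 of 19 measured members rose and 2 fell (median 2.39). The count that fell was 1 without gliomaspheres A, without gliomaspheres B or without HER2CA day 15 B, and also with DESeq2 and with the filter of 5 CPM in 2 libraries. Their sum was 570.4 and 615 CPM in HER2CA day 15 and 1827 and 1749.7 CPM in gliomaspheres. Dcx, the microtubule protein of young neurons, had 95 counts in gliomaspheres and 0 in HER2CA day 15, at least 47.4-fold higher. Nefl, a neurofilament subunit whose exons overlap those annotated for Nefm, rose from 1.78 and 3.02 CPM to 60.3 and 44.1 CPM (4.42). Elavl3, a neuronal RNA-binding protein, rose from 1.23 and 1.19 CPM to 14.5 and 12.6 CPM (3.50). Stmn3, a stathmin of neurons, had 266 counts in gliomaspheres and 2 in HER2CA day 15, a ratio of 199 (95% counting interval 54.5 to 1651). Syp, the synaptic vesicle protein synaptophysin, rose from 1.23 and 0.745 CPM to 8.21 and 9.66 CPM (3.18). Against these, Stmn2, a regulator of axonal microtubules, fell from 34.6 and 38.2 CPM to 4.75 and 5.43 CPM (−2.87). Rbfox3, Snap25 and Syt1, defining markers of mature neurons, were not analysed here.

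Lists of the proneural and mesenchymal glioma types, taken from human tumour classes, were counted separately. Of 25 proneural members, 21 rose and 3 fell (median 2.25), and of 27 mesenchymal members, 13 rose and 12 fell (median 0.05). The background was 38.2% higher and 40.7% lower. Bcan and Ncan, which encode brevican and neurocan of the brain matrix, belong to the proneural list. Bcan rose from 17.1 and 19.5 CPM to 703 and 742 CPM (edgeR log2 fold change 5.30, SE 0.109, adjusted p = 5.50e-15). Ncan rose from 119 and 130.1 CPM to 3562 and 3925 CPM (4.91). Bex1, a small neural signalling protein and 1 of the 3 proneural members that fell, fell from 16.6 and 14.7 CPM to 5.11 and 4.67 CPM (−1.66). Among mesenchymal members, Lgals3, the lectin galectin-3, fell from 95 and 91.8 CPM to 9.78 and 11.7 CPM (−3.16). The receptor kinase Met fell from 206 and 212 CPM to 26.8 and 25.7 CPM (−2.99). Chil1, a chitinase-like secreted protein, rose from 0.395 and 0.558 CPM to 4.93 and 6.3 CPM (3.46). Emp3, a membrane protein, rose from 1.48 and 2.08 CPM to 9.87 and 15.7 CPM (2.74).

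**Figure D4:**
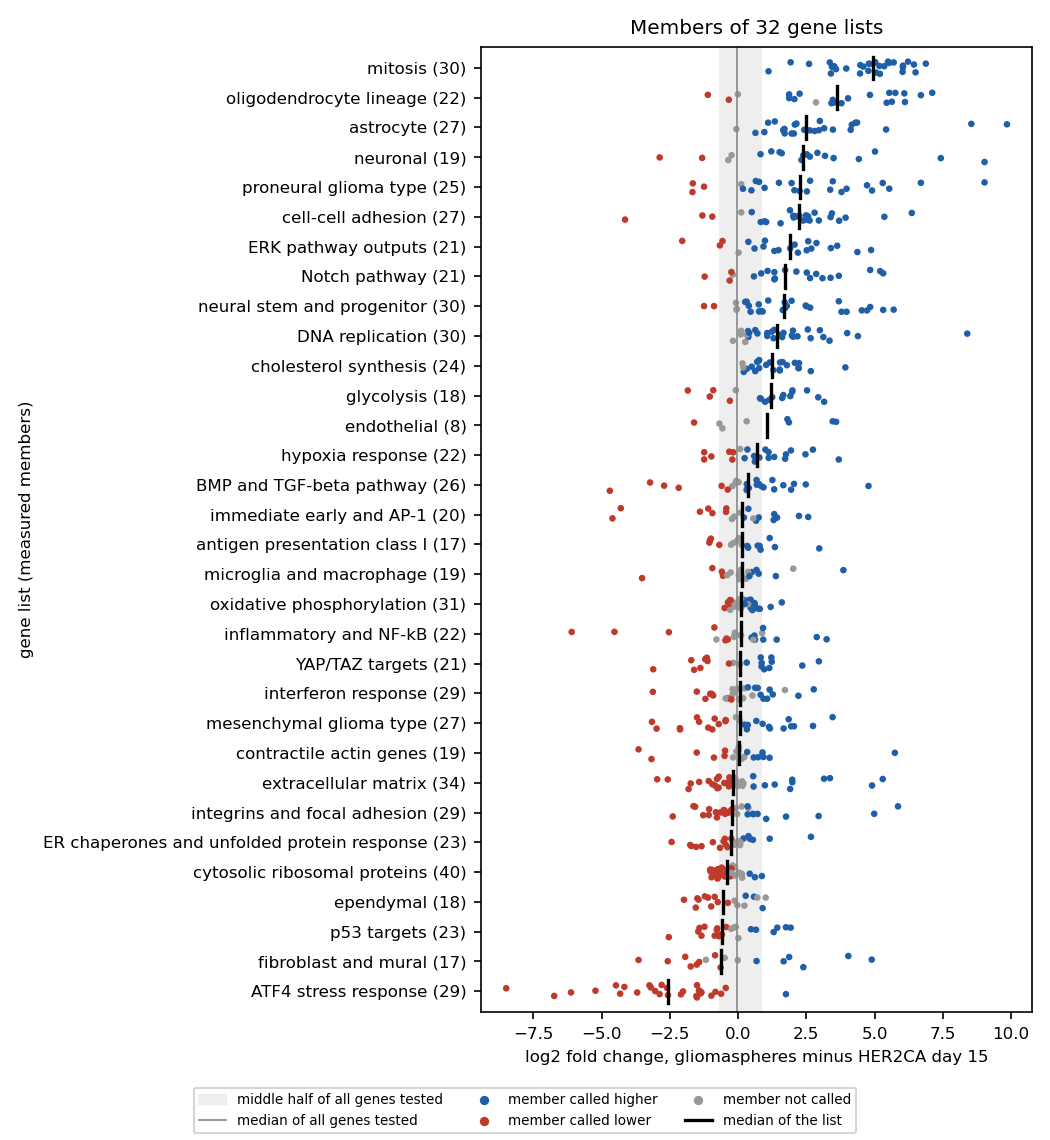
Each point is a measured member of 1 of 32 lists at its log2 fold change, gliomaspheres minus HER2CA day 15; blue members were called higher, red ones lower and grey ones not called, and black bars are list medians. The grey band spans the lower to the upper quartile of all genes tested and the line their median of −0.04; mitosis (4.93) and ATF4 (−2.57) are the extremes, and lists near the line hold members on both sides.

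Outputs of the ERK pathway, one of the routes below HER2, mostly rose in gliomaspheres. Of 21 measured, 17 rose and 3 fell, with a median of 1.91. Summed levels were 1124 and 1194 CPM in HER2CA day 15, 4576 and 4736 CPM in gliomaspheres, 1819.6 and 1814 CPM in controls and 3176 and 3198 CPM with 4OH-TAM. HER2CA day 15, which received doxycycline, was thus below the controls without it. Feedback inhibitors were among the members that rose. Spry1 (chromosome 3, 37639947 to 37644598), a Sprouty protein, rose from 1.53 and 1.86 CPM to 47.3 and 54.1 CPM (edgeR log2 fold change 4.87, SE 0.145, adjusted p = 1.38e-13). Dusp6, the ERK phosphatase, rose from 15.3 and 17.2 CPM to 161 and 184 CPM (3.40). Etv4, an ETS factor induced by ERK, rose from 6.81 and 7.82 CPM to 147 and 159 CPM (4.37). Ccnd1, cyclin D1, which starts the cell cycle, rose from 168 and 157 CPM to 2042 and 1976 CPM (3.63). Epha4, an ephrin receptor, fell from 179 and 199 CPM to 45.4 and 46.2 CPM (−2.05). Ier3 fell from 35.1 and 39.9 CPM to 24 and 23.1 CPM (−0.67). Myc, the growth factor-induced oncogene, was at 109.8 and 116 CPM in HER2CA day 15 and 106 and 125 CPM in gliomaspheres (0.02, edgeR adjusted p = 0.86).

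Immediate early genes moved in both directions, as did all genes tested. 9 of 20 rose and 7 fell (median 0.15, background 38.2% higher and 40.7% lower). Egr1, a zinc-finger factor that ERK induces within minutes, rose from 45.2 and 43.2 CPM to 232 and 294 CPM (edgeR log2 fold change 2.57, SE 0.102, adjusted p = 2.99e-12). Egr3, a relative, rose from 5.92 and 5.7 CPM to 25.7 and 29.3 CPM (2.23). Fos rose from 40.9 and 35.4 CPM to 95.7 and 109.8 CPM (1.43), and Egr2 rose from 3.5 and 5.47 CPM to 10.8 and 12.5 CPM (1.32). Atf3, an AP-1 partner that ATF4 also induces, fell from 134 and 159 CPM to 5.96 and 6.19 CPM (edgeR log2 fold change −4.60, SE 0.125, adjusted p = 6.05e-14). Klf4, a Krüppel-like factor, fell from 235 and 229 CPM to 12.2 and 11.1 CPM (−4.30). Jun was at 307 and 372 CPM in HER2CA day 15 and 374 and 349 CPM in gliomaspheres (0.09), and did not pass the test (edgeR adjusted p = 0.363). Egr genes and Fos thus rose, while Atf3 and Klf4 fell. The AP-1 element TGACTCA occurred in 0 of 22 promoter windows of this list and in 0 of 15 of the ERK list, against 3.75% of all windows.

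Notch genes rose at the level of ligands, receptors and targets. Of 21 measured, 17 rose and 3 fell (median 1.72). Among ligands and their modifiers, Dll1 rose from 3.46 and 4.1 CPM to 48.3 and 50.4 CPM (edgeR log2 fold change 3.69, SE 0.138, adjusted p = 1.49e-12). Lfng, a glycosyltransferase that tunes Notch to its ligands, rose from 15.3 and 16.5 CPM to 166 and 169 CPM (3.39). The receptors Notch1 and Notch3 rose while Notch2 fell. Notch1 rose from 255 and 263 CPM to 451 and 483 CPM (0.85). Notch3 rose from 25.8 and 26.5 CPM to 150.3 and 149 CPM (2.52). Notch2 fell from 179 and 168 CPM to 64.7 and 85.9 CPM (−1.23). Rbpj, the DNA-binding partner of Notch, was slightly lower, at 98.8 and 98.7 CPM in HER2CA day 15 and 74.9 and 85.4 CPM in gliomaspheres (−0.31). Of direct targets, Hes5, a repressor that keeps progenitors undifferentiated, rose from 0.148 and 0.149 CPM to 6.37 and 5.75 CPM (5.32). Nrarp, a feedback inhibitor, rose from 0.494 and 0.484 CPM to 14.1 and 14.1 CPM (4.84).

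In the BMP and TGF-beta list, 16 of 26 rose and 6 fell (median 0.36). Ligands went in opposite directions: Bmp7 rose from 1.14 and 1.53 CPM to 36.9 and 37.7 CPM (edgeR log2 fold change 4.78, SE 0.168, adjusted p = 7.91e-13). Bmp3 fell from 52 and 42.9 CPM to 1.7 and 2.06 CPM (−4.70). Bmp6 fell from 18.4 and 20.9 CPM to 2.78 and 3.47 CPM (−2.71). Among targets, Id3, an inhibitor of helix-loop-helix factors, rose from 12.1 and 14.5 CPM to 80.1 and 68.3 CPM (2.48), below the 103 and 123 CPM of controls. Tgfbi, a TGF-beta-induced matrix protein, rose from 3.01 and 2.79 CPM to 10.5 and 14.2 CPM (2.05).

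Targets of YAP and TAZ, the co-activators that respond to cell shape and attachment, moved in both directions. Of 21 measured, 10 rose and 8 fell (background 38.2% higher and 40.7% lower), with a median of 0.08. Summed levels were 2133 and 2290.0 CPM in HER2CA day 15, 2038 and 2088 CPM in gliomaspheres, 2132 and 2049 CPM in controls and 2533 and 2637 CPM with 4OH-TAM, so the compared groups differed less in the sum than in single members. Ctgf, a matricellular protein and frequent reporter of YAP activity, rose from 1.14 and 1.34 CPM to 9.01 and 11 CPM (edgeR log2 fold change 2.96, SE 0.201, adjusted p = 1.72e-09), whereas its relative Cyr61 fell from 37.6 and 58.8 CPM to 20.9 and 24.5 CPM (−1.12). Controls held more of both, with Ctgf at 18.6 and 15.4 CPM and Cyr61 at 308 and 283 CPM. Myof, the membrane repair protein myoferlin, fell from 466 and 435 CPM to 53.7 and 50.3 CPM (−3.11). Ajuba, a scaffold of the Hippo pathway, fell from 42.4 and 59.2 CPM to 14.8 and 16.8 CPM (−1.72). Amotl1, an angiomotin, rose from 134 and 134 CPM to 281 and 311 CPM (1.14). F3, tissue factor, rose from 45.5 and 59.5 CPM to 118 and 128 CPM (1.22). Fjx1 rose from 24.2 and 27.5 CPM to 62.7 and 58.7 CPM (1.23). The TEAD element GGAATG, either strand, occurred in 6 of 16 windows (37.5%), against 12.2% of all windows.

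Glycolytic transcripts rose, 13 of 18 measured, while 4 fell (median 1.20). Their sum was 5425 and 5485 CPM in HER2CA day 15, 11786 and 12504 CPM in gliomaspheres and 14723 and 16699.9 CPM in controls, so HER2CA day 15 was the low group. Aldoc, the brain aldolase, which is also an astrocyte marker, rose from 96.8 and 95.8 CPM to 832 and 879 CPM (edgeR log2 fold change 3.15, SE 0.115, adjusted p = 1.17e-12). Slc2a1, the glucose transporter GLUT1, rose from 32 and 37.9 CPM to 137 and 141 CPM (1.99). Slc16a3, the lactate exporter MCT4, rose from 3.9 and 4.99 CPM to 37 and 31 CPM (2.94). Pfkm, a phosphofructokinase, rose from 61 and 64 CPM to 344 and 376 CPM (2.52), while another isoform gene, Pfkp, fell from 756 and 831 CPM to 381 and 394 CPM (−1.04). Pfkfb3, which makes the activator of phosphofructokinase, fell from 348 and 362 CPM to 94.8 and 104 CPM (−1.84).

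In the hypoxia list, 15 of 22 rose and 6 fell (median 0.70). Car9, a carbonic anhydrase induced by HIF, rose from 10.4 and 11.1 CPM to 56.6 and 62.9 CPM (edgeR log2 fold change 2.47, SE 0.136, adjusted p = 1.48e-10), below the 107 and 128 CPM of controls. Nrn1, neuritin, rose from 5.97 and 5.4 CPM to 72.9 and 73 CPM (3.69). Egln3, the HIF prolyl hydroxylase PHD3, rose from 14.6 and 12.5 CPM to 50.2 and 53.2 CPM (1.94). Ndrg1 fell from 107 and 124 CPM to 46.5 and 51.9 CPM (−1.24). Ero1l, an ER oxidase, fell from 434 and 430.3 CPM to 181 and 185 CPM (−1.24). Summed levels of 2021 and 1993 CPM in HER2CA day 15 and 2256 and 2251 CPM in gliomaspheres lay below the 3759 and 3643 CPM of controls. The HIF core ACGTG, either strand, occurred in 13 of 25 windows (52%) of hypoxia genes and 16 of 27 windows (59.3%) of glycolysis genes, against 24.5% of all windows.

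Cholesterol synthesis rose nearly throughout, 22 of 24 members with 0 that fell (median 1.23). Dhcr7, the dehydrocholesterol reductase, rose from 14.8 and 13.8 CPM to 86.2 and 95.5 CPM (edgeR log2 fold change 2.66, SE 0.0975, adjusted p = 1.20e-12). Nsdhl, a sterol dehydrogenase, rose from 15.6 and 14.3 CPM to 64.8 and 75.1 CPM (2.22). Stard4, a sterol transporter, rose from 6.86 and 6.4 CPM to 34.5 and 26.6 CPM (2.23). The sum was 1378 and 1536 CPM in HER2CA day 15, 3096 and 3175 CPM in gliomaspheres, 2239 and 2192 CPM in controls and 1274 and 1243 CPM with 4OH-TAM, highest in gliomaspheres. The SREBP element TCACNCCA occurred in 3 of 20 windows (15%), against 3.67% of all windows.

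Nuclear-encoded subunits of oxidative phosphorylation were close to the median of all genes. 14 of 31 rose, 6 fell and 11 did not pass (median 0.12, background 38.2% higher and 40.7% lower), with 2 at least 2-fold higher. Atp5a1, a subunit of ATP synthase, rose from 416 and 415 CPM to 1221 and 1299 CPM (1.6). Uqcrfs1, the Rieske protein of complex III, rose from 65.5 and 58.2 CPM to 149.5 and 132 CPM (1.19). Ndufb8, of complex I, rose from 54.2 and 48.6 CPM to 107 and 68.4 CPM (0.79), and Cox5b, of complex IV, rose from 85 and 75.1 CPM to 155 and 100.1 CPM (0.69), with gliomaspheres A above gliomaspheres B for both. Ndufs3, of complex I, fell from 103 and 103 CPM to 84.7 and 73.1 CPM (−0.37). Ndufv1, another complex I subunit, fell from 144 and 146 CPM to 102 and 103 CPM (−0.49). Mitochondrially encoded genes were not analysed here.

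Cytosolic ribosomal protein transcripts were lower, 27 of 40 members with 3 higher (median −0.41). Here the 2 gliomasphere libraries differed. Rps7, of the small subunit, fell from 417 and 384 CPM to 251 and 140.3 CPM. Rps14 fell from 296 and 295 CPM to 206 and 95 CPM, so the library rich in ribosomal RNA was the lower one. Without gliomaspheres B, 23 members fell and 6 rose, and with upper-quartile factors 21 fell and 6 rose. Rpl32, of the large subunit, fell from 457 and 409.9 CPM to 255 and 173 CPM (−1.01), and Rpl12 fell from 547 and 536 CPM to 320.5 and 229 CPM (−0.97). Of those that rose, Rpsa, which doubles as the laminin receptor, rose from 600.2 and 561 CPM to 858 and 919.8 CPM (0.61), and Rplp0, of the ribosomal stalk, rose from 447 and 424 CPM to 871 and 719.8 CPM (0.87). These genes share sequence with many pseudogenes, so their counts are uncertain. In controls the sum, 10661 and 11623 CPM, was below both 17115 and 16132 CPM in HER2CA day 15 and 13935 and 11827 CPM in gliomaspheres.

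**Figure D5:**
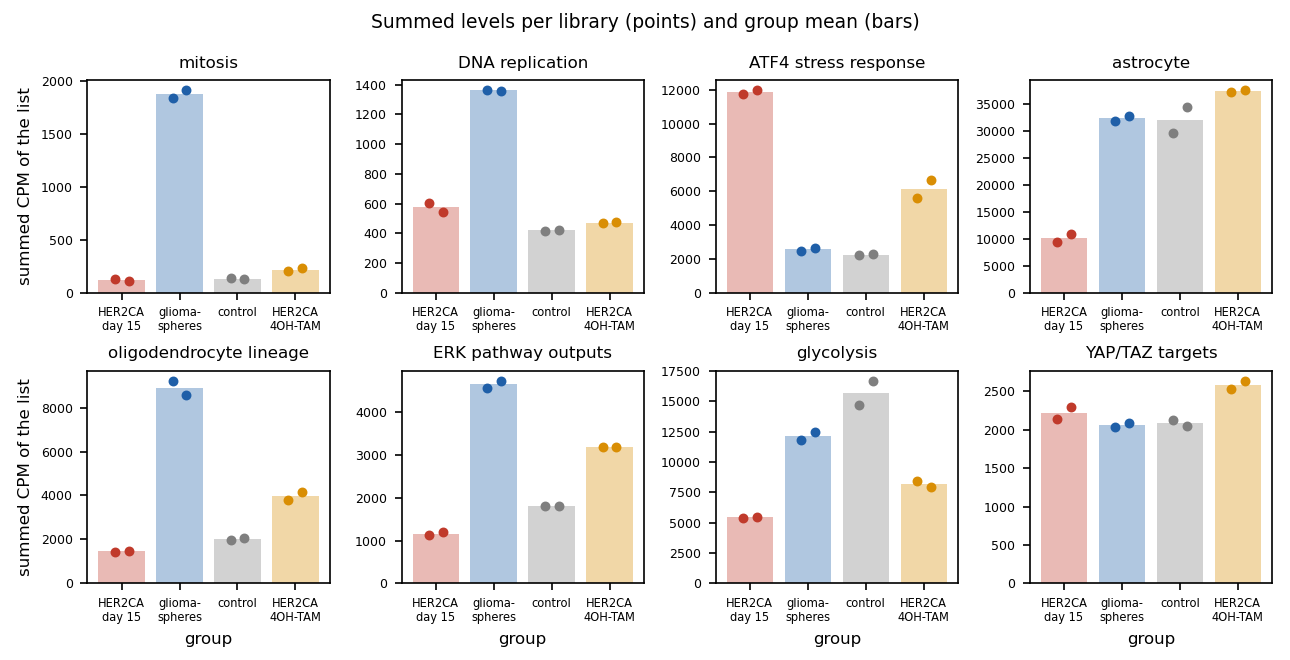
Summed CPM of the measured members of 8 lists in each of the 4 groups; points are the 2 libraries of a group and bars their mean, with each axis starting at 0. Gliomaspheres stand highest for mitosis, DNA replication, the oligodendrocyte lineage and ERK outputs, HER2CA day 15 stands highest for ATF4 and lowest for astrocyte markers, ERK outputs and glycolysis, and the YAP/TAZ sums all lie between 2038 and 2637 CPM.

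Molecules that join cells to each other mostly rose. In the cell-cell adhesion list, 23 of 27 measured members rose and 3 fell (median 2.25), 1 with the filter of 5 CPM in 2 libraries. Cldn10, a claudin, rose from 0.0987 and 0.112 CPM to 9.33 and 9.01 CPM (edgeR log2 fold change 6.36, SE 0.389, adjusted p = 4.96e-10). The cadherin Cdh10 rose from 4.39 and 5.14 CPM to 74 and 73.2 CPM (3.94). Cdh20 rose from 17.1 and 15.4 CPM to 177 and 173 CPM (3.44). Ncam2, a neural cell adhesion molecule, rose from 5.82 and 5.88 CPM to 85.9 and 64.8 CPM (3.70). Cdh2, N-cadherin, rose from 154 and 154 CPM to 316 and 313 CPM (1.03). L1cam, a neural adhesion molecule, fell from 5.43 and 3.83 CPM to 0.269 and 0.217 CPM (−4.14), and Cadm1, a synaptic and epithelial adhesion molecule, fell from 309 and 282 CPM to 119 and 120.0 CPM (−1.31). Cdh1 and Epcam, the epithelial members, were not analysed here.

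Molecules that join cells to matrix moved both ways. Integrins and focal adhesion genes counted 10 of 29 higher and 15 lower (median −0.23, background 38.2% higher and 40.7% lower). Actin cross-linkers were among those that fell. Flnc, filamin C, fell from 316 and 438 CPM to 71.6 and 72 CPM (edgeR log2 fold change −2.39, SE 0.129, adjusted p = 1.16e-10). Actn1, alpha-actinin 1, fell from 150.2 and 156 CPM to 48.6 and 50.2 CPM (−1.64). Itga3, a laminin-binding integrin, fell from 36.6 and 35.8 CPM to 16 and 13.1 CPM (−1.28), and Itgav, the vitronectin receptor subunit, rose from 288 and 284 CPM to 964 and 966 CPM (1.76). Itgb3, a partner of Itgav, rose from 0.395 and 0.968 CPM to 5.29 and 6.08 CPM (2.95). Lmcd1, a LIM protein, rose from 0.0494 and 0.149 CPM to 6.32 and 6.73 CPM (5.86).

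The contractile list was even, with 7 of 19 higher and 6 lower (median 0.03, background 38.2% higher and 40.7% lower). Acta2, smooth muscle actin, fell from 258 and 255 CPM to 19.2 and 22.5 CPM (edgeR log2 fold change −3.65, SE 0.119, adjusted p = 3.70e-13). Cnn1, calponin 1, fell from 5.82 and 6.14 CPM to 0.852 and 0.217 CPM (−3.17). Mylk, the kinase of myosin light chain, rose from 0.592 and 0.707 CPM to 35.2 and 35.8 CPM (5.74). The cytoplasmic actins were higher. Actb rose from 1253 and 1325 CPM to 1817 and 2474 CPM (0.73). Actg1 rose from 730.0 and 802 CPM to 1379 and 1538 CPM (0.93). Csrp1, a LIM protein of smooth muscle, rose from 61.3 and 62.2 CPM to 109 and 121 CPM (0.89).

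Matrix genes changed in both directions with a similar total. 11 of 34 rose and 17 fell (median −0.18, background 38.2% higher and 40.7% lower). Their sum was 9348 and 9451 CPM in HER2CA day 15 and 10466 and 10482 CPM in gliomaspheres. Within this list, which does not hold Tnr, the brain proteoglycans Bcan and Ncan, given above, had the largest rises. Fn1, fibronectin, fell from 3971 and 3651 CPM to 1503 and 1332 CPM (edgeR log2 fold change −1.43, SE 0.0815, adjusted p = 2.27e-10). The fibrillar collagen Col3a1 fell from 111 and 111 CPM to 32.5 and 34.5 CPM (−1.74), and Col5a1 fell from 118 and 112 CPM to 33.2 and 32.1 CPM (−1.81). Lama1, a basement membrane laminin, fell from 12.2 and 14.4 CPM to 1.48 and 2.17 CPM (−2.97). Tnc, tenascin-C, fell from 2129 and 2354 CPM to 1171 and 1159.5 CPM (−0.94), and both groups exceeded the 460.4 and 454 CPM of controls.

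Markers of other cells that such cultures can hold were examined next, since their share could differ between groups. In the microglia and macrophage list, 6 of 19 rose and 4 fell (background 38.2% higher and 40.7% lower). Summed levels were 292 and 309 CPM in HER2CA day 15 and 183 and 180.3 CPM in gliomaspheres, against 1403 and 1346 CPM with 4OH-TAM. Without HER2CA day 15 B, 2 members fell. Cd68, a lysosomal protein, fell from 133 and 145 CPM to 11.4 and 13.5 CPM (−3.52), a larger fall in CPM than that of the sum. Lyz2, the macrophage lysozyme, rose from 44.4 and 42.7 CPM to 60.1 and 55.3 CPM (0.41), and Cd14, a receptor for lipopolysaccharide, rose from 3.5 and 2.98 CPM to 8.03 and 9.01 CPM (1.38). The complement gene C1qb was at 10.2 and 10.6 CPM in HER2CA day 15 and 11 and 9.88 CPM in gliomaspheres (0.03, edgeR adjusted p = 0.851). Csf1r, the macrophage growth factor receptor, rose from 4.29 and 4.32 CPM to 6.19 and 5.97 CPM (0.50), a call lost without gliomaspheres A (edgeR adjusted p = 0.0822). Tmem119 was at 0.0494 and 0.0372 CPM in HER2CA day 15 and 0.224 and 0.109 CPM in gliomaspheres, at the limit of detection. P2ry12, a microglial nucleotide receptor, rose from 0.197 and 0.223 CPM to 3.5 and 2.5 CPM (3.86). Controls summed to 310.2 and 344 CPM, and no measured member was at 0 in either compared group.

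Fibroblast and mural markers counted 6 of 17 higher and 8 lower (median −0.64, background 38.2% higher and 40.7% lower). Sums were 4777 and 4485 CPM in HER2CA day 15 and 2589.9 and 2374 CPM in gliomaspheres, most of it Fn1. Col1a2, a defining fibroblast collagen, fell from 3.36 and 3.24 CPM to 0.314 and 1.09 CPM. Dcn, the proteoglycan decorin, was at 1.04 and 0.894 CPM in HER2CA day 15 and 0.179 and 0.977 CPM in gliomaspheres. Pdgfrb, the mural receptor, was at 2.37 and 2.79 CPM in HER2CA day 15 and 1.75 and 2.06 CPM in gliomaspheres. These 3, picked after their values were seen, were below 4 CPM in both groups. Other members were higher in HER2CA day 15: Acta2, smooth muscle actin, was at 258 and 255 CPM in HER2CA day 15 and 19.2 and 22.5 CPM in gliomaspheres, and the collagen Col3a1 at 111 and 111 CPM in HER2CA day 15 and 32.5 and 34.5 CPM in gliomaspheres. Postn, periostin, fell from 7.55 and 7.11 CPM to 1.88 and 1.95 CPM (−1.94), and Tagln, transgelin of smooth muscle, fell from 48.4 and 51.2 CPM to 18.3 and 16 CPM (−1.51). The matrix fibulins rose. Fbln2 rose from 4.34 and 5.29 CPM to 151 and 138 CPM (4.89), and Fbln1 rose from 1.63 and 3.02 CPM to 12.3 and 12.9 CPM (2.39). Of 18 endothelial markers 8 were measured and summed to 10.7 and 12.1 CPM in HER2CA day 15 and 60.9 and 58.4 CPM in gliomaspheres, mostly through Flt1 and Plvap. Flt1, a VEGF receptor, rose from 3.21 and 3.02 CPM to 40.3 and 33.8 CPM. Plvap, of endothelial diaphragms, rose from 1.28 and 1.56 CPM to 14.5 and 18 CPM. Pecam1, Cdh5 and Cldn5 were not analysed here. Ependymal markers summed to 153 and 153 CPM and 144 and 143 CPM, with 10 of 18 lower (background 40.7%). Foxj1, the ciliogenesis factor that defines the type, rose from 77.5 and 78.4 CPM to 95.4 and 93.5 CPM (0.28). Several genes of motile cilia fell. Cfap52, a cilium protein, fell from 7.5 and 7.71 CPM to 1.75 and 2.28 CPM (−1.98). Ccdc40, which sets the spacing of cilium arms, fell from 15.9 and 15.9 CPM to 5.7 and 6.08 CPM (−1.45), while its partner Ccdc39 rose from 5.53 and 4.43 CPM to 9.19 and 9.23 CPM (0.90). Tekt1, a tektin, fell from 5.23 and 5.77 CPM to 2.74 and 1.63 CPM (−1.22), and Cfap126 fell from 11.1 and 12.1 CPM to 6.14 and 6.95 CPM (−0.86). Without gliomaspheres B, 7 ependymal members fell in place of 10. No measured member of these 3 lists was at 0 in either group. Whether the share of such cells contributes to any change above was not tested.

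Interferon genes moved both ways, with 10 of 29 higher, 8 lower and 11 not called (median 0.06, background 38.2% higher and 40.7% lower). The count of lower members was 5 without HER2CA day 15 A and 5 with upper-quartile factors. Gbp2, an interferon-induced GTPase, fell from 182 and 173 CPM to 19.2 and 22.3 CPM (edgeR log2 fold change −3.12, SE 0.0941, adjusted p = 1.51e-13). Ifit3b, an antiviral tetratricopeptide protein, rose from 1.83 and 0.968 CPM to 5.96 and 6.73 CPM (2.21). Ddx58, the sensor RIG-I, rose from 19.7 and 18.6 CPM to 28.1 and 31.5 CPM (0.62), and Stat2 rose from 14.3 and 15.2 CPM to 19 and 18.9 CPM (0.36). Bst2, the virus-tethering protein tetherin, fell from 8.79 and 7.15 CPM to 3.54 and 3.26 CPM (−1.20). Isg15, a ubiquitin-like modifier, was at 0.543 and 0.707 CPM in HER2CA day 15 and 0.718 and 0.543 CPM in gliomaspheres (0.06, edgeR adjusted p = 0.892). The interferon element GAAANNGAA occurred in 13 of 24 windows (54.2%), against 6.93% of all windows. Both compared groups lay below the 4OH-TAM libraries, whose members summed to 763 and 774 CPM against 395 and 385 CPM in HER2CA day 15 and 246 and 255 CPM in gliomaspheres.

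Inflammatory genes were likewise mixed, 8 of 22 higher and 7 lower (background 38.2% higher and 40.7% lower). Their median was 0.10, which turned to −0.06 when only genes of at least 5 CPM in 2 libraries were kept. Ptgs2, given among the largest decreases, led the falls. Il33, an alarmin of glial nuclei, rose from 2.37 and 3.2 CPM to 26.9 and 26.7 CPM (edgeR log2 fold change 3.24, SE 0.145, adjusted p = 1.17e-11). Vcam1, an adhesion receptor for leukocytes, rose from 60.2 and 55.1 CPM to 109 and 109 CPM (0.92). Icam1, another such receptor, rose from 8.98 and 8.04 CPM to 13.6 and 11.6 CPM (0.60). Nfkb2, an NF-kB subunit, fell from 57.1 and 62.7 CPM to 34.3 and 30.8 CPM (−0.87). Nfkbia, the inhibitor IκBα, rose from 13.4 and 14.4 CPM to 19.9 and 19.3 CPM (0.49). Il1a had 6 counts in HER2CA day 15 and 0 in gliomaspheres, and its call was lost when any 1 of gliomaspheres A, gliomaspheres B or HER2CA day 15 A was left out. Antigen presentation genes of class I counted 8 of 17 higher and 4 lower, beside the same background. B2m, the common light chain, rose from 101 and 94.4 CPM to 164 and 174 CPM (0.79). H2-K1 fell from 64.3 and 68.9 CPM to 33.1 and 32 CPM (−1.03). H2-D1 fell from 14.1 and 16.4 CPM to 6.5 and 9.77 CPM (−1.0), so the light chain rose and these heavy chains fell. H2-T23, a nonclassical class I gene, rose from 0.839 and 0.782 CPM to 6.55 and 6.08 CPM (2.97). Tapbp, the peptide-loading protein tapasin, rose from 52 and 55.7 CPM to 90.2 and 101 CPM (0.82), and Psmb10, an immunoproteasome subunit, rose from 4.59 and 5.92 CPM to 13.5 and 13.6 CPM (1.35).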

How the data were processed

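RNA of cultured mouse cells was measured by RNA-seq of polyadenylated transcripts in 8 libraries, 2 per group. Per the labels' protocols, libraries were made with the TruSeq Stranded mRNA kit. Per the submitters' processing notes, reads were checked with FastQC, aligned with STAR 2.5.3a to mm10 (GRCm38) and counted with featureCounts. Neither the annotation nor the strand setting is given in the sources used. The authors deposited 1 table of raw read counts per gene symbol, as its whole-number values show.

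Rn45s and Lars2 were removed before scaling, since gliomaspheres B was rich in them. TMM factors, edgeR 4.0.16 quasi-likelihood fits (R 4.3.3, limma 3.58.1) and the contrast of gliomaspheres with HER2CA day 15 used all 8 libraries in 4 groups, with 4 residual degrees of freedom. The filter on low counts removed 0 of 13605 genes. P-values were adjusted by Benjamini-Hochberg over all genes at a threshold of 0.05. The SE was taken as the size of the log2 fold change over the root of its F statistic. Genes at 0 counts in a group were bounded at 3 counts over the group. Those at 1 to 3 counts were given as a ratio with an exact 95% interval for counting error. Library totals of 15517708 to 28231426 counts set the precision. The code was tested on simulated data.

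Members and lists were chosen with earlier results of these data known. Genes were named by a rule: Yap1, Wwtr1 and Erbb2, the 10 largest increases and the 10 largest decreases with at least 10 CPM in the higher group and groups that do not overlap, and in each list the 4 largest called changes in the major direction and 2 in the other with at least 5 CPM, together with members at 0 counts. Outside it, these genes were chosen after their values were seen: Anln, Asns, Atf4, Atf5, C1qb, Cdh2, Chac1, Col1a2, Cyr61, Dcn, Egfr, Gfap, Isg15, Itgav, Jun, L1cam, Mag, Malat1, Mbp, Mcm2, Myc, Nes, Notch1, Notch3, P2ry12, Pdgfrb, Phgdh, Slc7a1, Slc7a11, Slc7a5, Sox9, Tmem119, Tnc, Tpx2 and Vim. The gene families in the closing section were too. Some genes that the rule names are not reported here.

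Of 13605 symbols, 13137 (96.6%) matched GENCODE M21 on GRCm38, which gave positions, and 10338 (76%) had a RefSeq promoter on GRCm38.p6. Alternatives were other scaling factors, filters and tests, DESeq2 1.42.0, a fit of the 2 groups alone, Rn45s and Lars2 kept, a replicate block and leaving out each library. The labels' condition field gives DMSO for both groups, and the treatment protocol calls such cells untreated.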

Additional observations from a re-analysis of the deposited data

Results flagged for a closer look

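Gliomaspheres B held Rn45s, the ribosomal RNA transcript, at 36.1% of its counts, above both control libraries, in data that were removed before scaling and entered only the alternative in which both transcripts were kept. Lars2, also removed, made up 2.77% of the counts of gliomaspheres B, again above both control libraries. What links these shares to the differences between the 2 gliomasphere libraries in Malat1, Rpph1 and ribosomal protein transcripts was not tested.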

How the results depend on the processing

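The mitosis list had 30 higher members and the ATF4 list 28 lower members in each fit without 1 library. Genes called ran from 10002 without HER2CA day 15 B to 10530 without gliomaspheres B, against 10737, and 10170 with DESeq2. Without each library in turn, 4868 to 5104 genes were higher and 5115 to 5426 lower, with 2966 to 2990 at least 2-fold higher and 1836 to 2049 at least 2-fold lower. Against a 1.5-fold change, 3404 genes were higher and 2852 lower, 54.4% of calls higher. Upper-quartile factors gave 54.3% of calls higher and moved the median log2 difference of all genes from −0.04 to 0.08. Against a 1.5-fold change there were 2 microglia, 5 immediate early, 9 BMP and TGF-beta, 3 oxidative phosphorylation, 3 contractile, 5 interferon, 4 inflammatory and 5 class I members higher, and 6 ependymal, 9 ribosomal protein, 6 ER, 10 matrix and 8 integrin members lower. That test by construction asks for larger changes, and 21 genes followed by the naming rule lost their call in it. Keeping genes of at least 5 CPM in 2 libraries left 2 endothelial members and 1 member of the list of histones and noncoding RNAs higher, with fewer genes tested.

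The Rpph1 log2 fold change reversed to −0.47 (edgeR adjusted p = 0.393) without gliomaspheres B, its 1 high library, and was at 7.02 without gliomaspheres A. Wwtr1 lost its call also with the 5 CPM filter (−0.14, edgeR adjusted p = 0.0686) and with the 2 groups fitted alone (−0.15, edgeR adjusted p = 0.104), and the cause was not tested. Hist1h2bc lost its call with the 2 groups alone and without gliomaspheres A or HER2CA day 15 B, and Csf1r without gliomaspheres A. Il1a lost its call with DESeq2 and without gliomaspheres A, gliomaspheres B or HER2CA day 15 A. Leaving out each library in turn gave these ranges of members higher: BMP and TGF-beta pathway 13 to 16, DNA replication 24 to 27, ERK pathway outputs 16 to 17, Notch pathway 16 to 17, YAP/TAZ targets 9 to 10, antigen presentation class I 7 to 8, astrocyte 26, cell-cell adhesion 22 to 23, cholesterol synthesis 20 to 22, contractile actin genes 6 to 7, endothelial 3 to 4, glycolysis 13, hypoxia response 14 to 15, immediate early and AP-1 6 to 9, inflammatory and NF-kB 6 to 8, interferon response 8 to 10, mesenchymal glioma type 11 to 12, microglia and macrophage 5, mitosis 30, neural stem and progenitor 23 to 25, neuronal 15, oligodendrocyte lineage 18 to 19, oxidative phosphorylation 11 to 14, polyA-independent and ribosomal RNA 2 to 4, proneural glioma type 20 to 21. Members lower ranged as follows: ATF4 stress response 28, ER chaperones and unfolded protein response 11 to 12, cytosolic ribosomal proteins 23 to 31, ependymal 7 to 9, extracellular matrix 14 to 17, fibroblast and mural 7 to 9, integrins and focal adhesion 13 to 15, p53 targets 12 to 13.

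Whether the libraries' letters pair the groups is not settled. The difference of A and B in gliomaspheres correlated with that in HER2CA day 15 at r = 0.0154 across genes. This value cannot decide it, since the large difference between the 2 gliomasphere libraries could hide a shared one. With a replicate block 10707 genes were called, 48.4% of them higher, and no gene followed by the naming rule lost its call. Calls of other single list members were not followed. With 2 libraries a group and 9487800 counts in gliomaspheres B after removal of Rn45s and Lars2, small changes of low genes are the least certain.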

Other observations

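Transcripts of receptors and channels, grouped after their values had been seen, were higher in gliomaspheres than in HER2CA day 15. Of 19 glutamate receptor subunits measured, 17 rose and 1 fell, with a median log2 fold change of 2.71, beside −0.04 over all genes and a background of 38.2% called higher. Gria4, an AMPA receptor subunit, rose from 1.23 and 1.6 CPM to 77.8 and 71.5 CPM (edgeR log2 fold change 5.70, SE 0.135, adjusted p = 1.67e-14), and controls held 10.4 and 10.2 CPM. Grm3, a metabotropic receptor of glia, rose from 1.58 and 1.79 CPM to 55 and 71.4 CPM (5.20). Of 48 potassium channel subunits, 34 rose and 5 fell (median 1.6). Kcnj10, the inward rectifier by which astrocytes buffer potassium, rose from 32.6 and 27.3 CPM to 659 and 708 CPM (4.52). Of 16 synaptic adhesion organisers, 15 rose and 1 fell (median 3.06). Nlgn3, a neuroligin, rose from 4.34 and 3.76 CPM to 96.9 and 121 CPM (4.75), while Slitrk2 fell from 202 and 175 CPM to 91.7 and 114 CPM (−0.89).

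Enzymes that charge tRNAs were grouped by gene symbol, and symbols ending in 2 were taken as the mitochondrial set. Symbols alone do not settle the compartment, and synthetases with symbols of another form were left out. Of 17 aminoacyl-tRNA synthetases taken as cytosolic, 16 fell and 0 rose (median −2.07, background 40.7% called lower). Several of them belong to the ATF4 list, so this is not a separate line of evidence. Lars, for leucine, fell from 717 and 692 CPM to 92.4 and 95.6 CPM (−2.91). The exception among these 17 was Qars, for glutamine. Qars was at 93.5 and 90.0 CPM in HER2CA day 15 and 89.6 and 105 CPM in gliomaspheres (0.08, edgeR adjusted p = 0.393). Of 16 synthetases taken as mitochondrial, 9 fell and 2 rose (median −0.28), and the difference between the 2 sets was not tested.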
